A study of Mus musculus with 8 samples.

Results

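The 10 genes described are the FGF receptors Fgfr1, Fgfr2, Fgfr3, Fgfr4 and Fgfrl1 and the FGF ligands Fgf1, Fgf2, Fgf7, Fgf9 and Fgf10, taken by name from the 24980 gene symbols of the count table. All 10 were listed, and all 10 were among the 17582 genes with enough counts to be tested. RNA-seq was performed on 8 mouse libraries, 2 in each of 4 groups of skeletal myogenic cells. TF cells were progenitors sorted from teratomas, the mixed-tissue tumors formed by EGFP-labeled mouse embryonic stem cells (ESCs) that had been injected into irradiated and cardiotoxin-injured leg muscle of NSG-mdx4Cv mice, which are immunocompromised and lack dystrophin. TE cells were progenitors of the same origin cultured on gelatin to passage 8. SF cells were adult satellite cells, the resident stem cells of muscle, taken straight from the tissue, and SE cells were satellite cells cultured to passage 8. The teratoma-derived cells were sorted as CD31- CD45- α7-integrin+ VCAM-1+. The age and strain of the animals that gave the satellite cells, the composition of the expansion medium and any pooling of animals were not given in the sources used here.

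FGFs are secreted proteins that bind receptor tyrosine kinases on the cell surface together with heparan sulfate chains, and the bound receptors signal mainly through RAS and the ERK kinases. In skeletal muscle, FGF signaling through Fgfr1 is known to keep satellite cells and myoblasts dividing and to delay differentiation. Basic FGF (Fgf2) is a common additive to myoblast media. Fgfrl1 is the exception among the receptors, as it binds FGFs but has no intracellular kinase domain.

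In culture 9 of the 10 genes had a lower mean level in both kinds of cell, and Fgfrl1 had a higher one. Fgfr1, the most abundant receptor transcript of the fresh cells, fell 4.89-fold with expansion of teratoma-derived cells and 6.03-fold with expansion of satellite cells. Fgfr4, the receptor most tied to committed myogenic cells, fell from SF to SE, whereas for TE versus TF the result depended on the processing. Fgfr2 fell further from TF to TE than from SF to SE, a difference that passed the test but not without TF1 or TE1. Fgf1 fell from TF to TE, and the difference from its change between SF and SE passed the test but was lost in 11 of 14 alternatives.

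In GENCODE M21 (GRCm38) the receptor genes lie at chr8:25513654-25575718 on the plus strand (Fgfr1), chr7:130162451-133123350 on the minus strand (Fgfr2), chr5:33721674-33737068 on the plus strand (Fgfr3), chr13:55152640-55168759 on the plus strand (Fgfr4) and chr5:108692382-108706924 on the plus strand (Fgfrl1). The ligand genes lie at chr18:38838673-38929472 on the minus strand (Fgf1), and on the plus strand at chr3:37348346-37410108 (Fgf2), chr2:126034658-126091185 (Fgf7), chr14:58070547-58112720 (Fgf9) and chr13:118669791-118792115 (Fgf10). The annotated span of Fgfr2 is unusually long and overlaps 69 other genes. Counts were summed per gene symbol, so the values do not tell the receptor isoforms apart.

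Sequences upstream of 8 of the 10 genes were matched by symbol in RefSeq (GRCm38.p6), and Fgfr1 and Fgf1 had no entry. The windows of 4 genes are shown because their RNA marks the range of what culture did: Fgfr4 and Fgfrl1 moved in opposite directions, and Fgfr2 and Fgf10 had the widest differences between TE and TF. Each window runs 5′ to 3′ from 120 bases before to 10 bases after the RefSeq start, at chr13:55152698-55152827 on the plus strand for Fgfr4, chr5:108694109-108694238 on the plus strand for Fgfrl1, chr7:130266799-130266928 on the minus strand for Fgfr2 and chr13:118714579-118714708 on the plus strand for Fgf10. Capitals mark the motifs found, namely the GC box GGGCGG and the M-CAT element CATTCC, which do not overlap each other here.

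Fgfr4: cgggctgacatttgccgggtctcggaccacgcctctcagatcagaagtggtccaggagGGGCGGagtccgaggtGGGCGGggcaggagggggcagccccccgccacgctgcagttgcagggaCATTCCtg

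Fgfrl1: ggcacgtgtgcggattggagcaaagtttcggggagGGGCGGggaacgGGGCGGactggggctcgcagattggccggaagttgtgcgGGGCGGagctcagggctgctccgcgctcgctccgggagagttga

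Fgfr2: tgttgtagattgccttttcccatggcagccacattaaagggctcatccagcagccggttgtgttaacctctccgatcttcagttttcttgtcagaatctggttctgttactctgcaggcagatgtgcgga

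Fgf10: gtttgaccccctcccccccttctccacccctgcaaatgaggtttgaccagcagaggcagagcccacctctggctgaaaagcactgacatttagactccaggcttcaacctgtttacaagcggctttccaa

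The Fgfr4 window held 2 GC boxes and 1 M-CAT element, the site known to be bound by TEAD factors in muscle promoters, and the Fgfrl1 window held 3 GC boxes. The windows of Fgfr2 and Fgf10 held neither motif. In the full 300-base windows, from 250 bases before to 50 after the start, the GC boxes numbered 4 for Fgfr4, 4 for Fgfrl1, 1 for Fgf10 and 0 for Fgfr2, and the M-CAT element was found 1 time for Fgfr4 and 0 times for the others. Both strands were searched, and over the full windows of 32851 RefSeq promoters, GGGCGG was present in 35.7% and CATTCC in 14.7%. The E-box CAGCTG, the core of many sites for myogenic factors, was present in 16.3% of all promoters and among these genes only in a window of Fgfr3. GC content of the full windows was 65.3% for Fgfr4, 73.7% for Fgfrl1, 60.7% for Fgf10 and 43.7% for Fgfr2, against 52.7% as the median of all promoters. A match in these windows is a match of letters and was not tested against binding. The GENCODE M21 gene start lies 178 bases upstream of the RefSeq start for Fgfr4, 1847 bases for Fgfrl1, 44908 bases for Fgf10 and 2856542 bases for Fgfr2, so the windows may not be the promoters in use.

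Library totals ranged from 11930961 to 21146632 estimated counts, and a floor of 3 counts corresponded to between 0.141 and 0.252 CPM, the count per 1000000 counts of a library, and such floors cover counting error only. Levels are given as CPM scaled by the TMM normalization of edgeR, and a gene was called where edgeR's quasi-likelihood test gave an adjusted p (Benjamini-Hochberg, over all 17582 genes) below 0.05 and the higher group exceeded the lower by more than 25%, the fold threshold of the study. All p-values quoted are adjusted by Benjamini-Hochberg, for the alternatives over the genes that each of them tested. They measure the spread between 2 libraries a group. In the main fit that spread is estimated over all 4 groups, so groups outside a comparison also affect its p. The 7 myogenic markers Pax7, Myf5, Myod1, Itga7, Vcam1, Des and Cdh15 were detected in all 8 libraries, with summed levels of 1300 to 1620 CPM in TF, 2250 to 2290 in TE, 1980 to 2560 in SF and 2750 to 3330 in SE. They did not move together in culture. Mean Pax7 fell from 258 CPM in TF to 92.3 in TE and from 250 in SF to 96.5 in SE. Myf5 and Vcam1 also had lower means in both kinds of expanded cell, whereas Myod1, Itga7, Des and Cdh15 had higher ones. Des rose from 380 CPM in TF to 1031 in TE and from 798 in SF to 1612 in SE. Itga7 and Vcam1 were used to sort cells and are not a check. The 7 fibro-adipogenic and fibroblast markers (Pdgfra, Ly6a, Dcn, Lum, Col1a1, Col3a1, Dpt) summed to 32500 and 32800 CPM in TF, 3250 and 5910 in SF, 1120 and 1300 in SE and 616 and 678 in TE. All 7 were detected in the fresh libraries. Dpt was at 0 in both TE libraries, Lum at 0 in both SE libraries and TE2, Ly6a at 0 in TE2 and Dcn at 0 in SE1. Endothelial markers summed to between 68.4 and 351 CPM in the fresh libraries and to at most 2.21 in the expanded, haematopoietic markers to 349 and 31.4 in TF and at most 24.5 elsewhere, pericyte and smooth muscle markers to 985 and 1160 in TF, 1570 and 1670 in SF and between 243 and 257 in the expanded, Schwann and neural markers to 39.9 and 22.1 in TF, 62.6 and 53.7 in SF, 11.1 and 9.03 in SE and 9.63 and 7.47 in TE, and epithelial markers to 344 and 112 in TF and at most 13.6 elsewhere. In these bulk samples fewer cells of a type and less RNA per cell cannot be told apart.

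**Figure D1:**
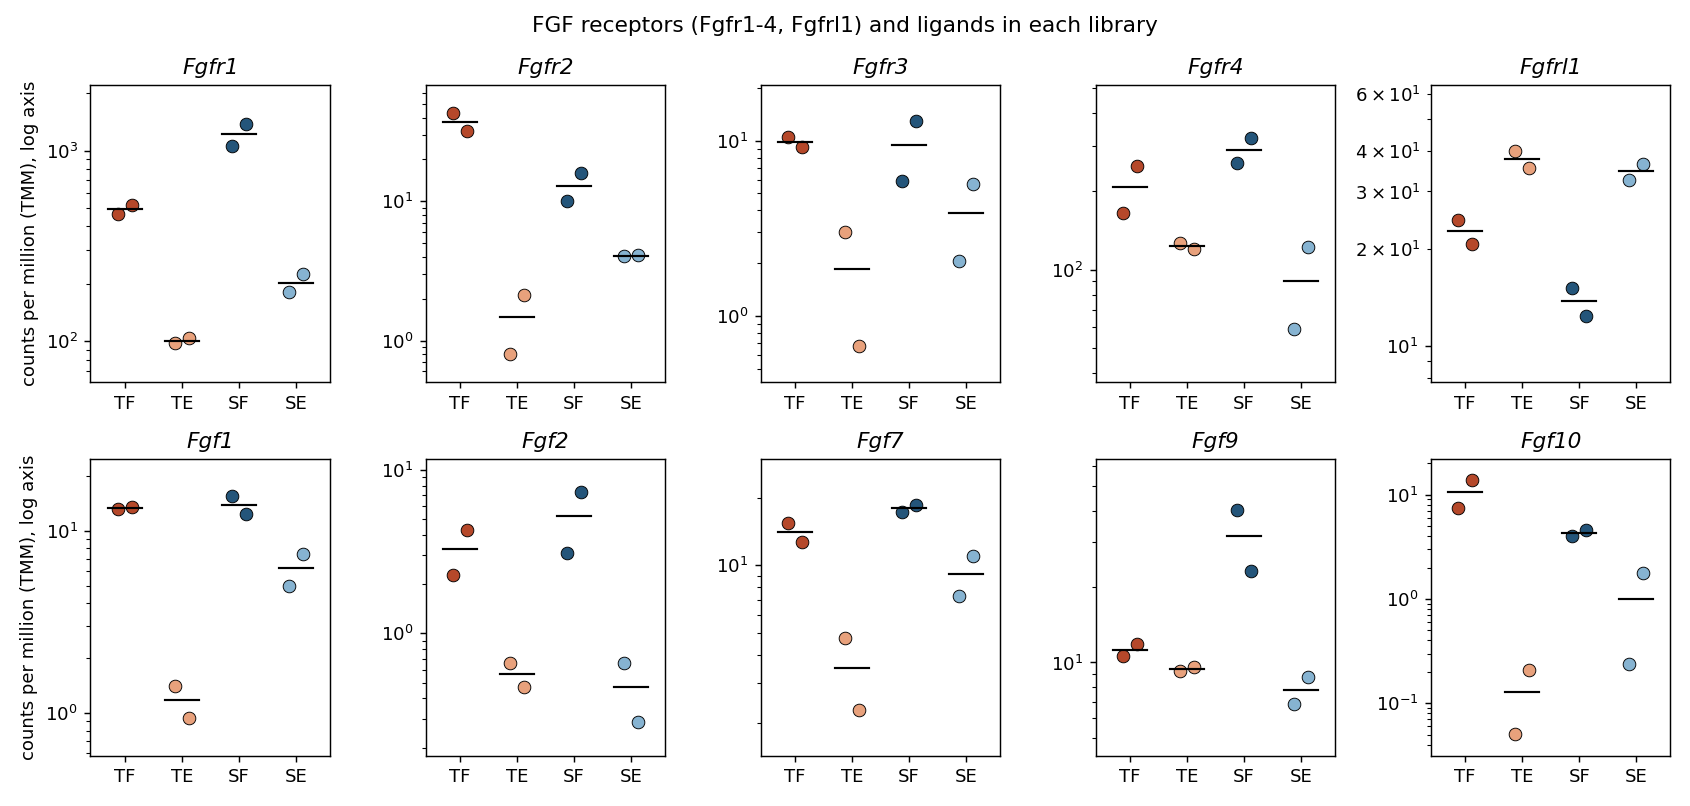
Level of each FGF gene in each library, in TMM-scaled CPM on a log axis with its own range per gene; points are libraries (2 per group) and bars are group means. Fgfr1 runs from 97.8 to 1380, and Fgfrl1 is the gene whose expanded libraries all lie above its fresh libraries.

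Fgfr1 is the receptor tyrosine kinase that carries most FGF signaling in mesodermal progenitors. It was at 465 and 518 CPM in TF, 97.8 and 103 in TE, 1061 and 1380 in SF and 180.1 and 225 in SE. No group overlapped another, and the order was SF, TF, SE, TE from highest to lowest, with each neighboring pair passing the test. The log2 fold change was -2.29 ± 0.218 (SE) for TE versus TF (adjusted p = 7.46e-05) and -2.59 ± 0.220 for SE versus SF (adjusted p = 2.47e-05). Teratoma-derived cells had less Fgfr1 than satellite cells both fresh (log2 fold change -1.31, adjusted p = 0.00233) and expanded (-1.01, adjusted p = 0.0193). The group means of Fgfr1, like those of Fgf1 and Fgf7, fell in the same order as the summed endothelial, pericyte and Schwann markers. The satellite cell gene Vcam1 had that order too, at means of 347 CPM in SF, 293 in TF, 93.3 in SE and 39.7 in TE. The summed myogenic markers did not. Within the pericyte list, Rgs5 was at a mean of 63.8 CPM in SE and 0 in TE, whereas Notch3 was at 164 and 215. The part of such cells in these levels was not tested. The call for TE versus SE was lost without TE1 (adjusted p = 0.199) or TE2 (0.169).

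Fgfr4 encodes the receptor typical of activated satellite cells, myoblasts and regenerating muscle. Its level was 166 and 250 CPM in TF, 126 and 120 in TE, 256 and 322 in SF and 59.1 and 122 in SE. The TE replicates lay close together, the SE replicates far apart, and only SF lay above all libraries of the other groups. Fgfr4 fell from SF to SE (log2 fold change -1.67 ± 0.333, adjusted p = 0.00327). From TF to TE the log2 fold change was -0.76 ± 0.327 (adjusted p = 0.117), although both TF libraries lay above both TE libraries. That change passed in 5 of 15 alternatives, namely without a filter (adjusted p = 0.00819), with only the groups compared (0.0115), with DESeq2 (0.0442) and without SE1 (0.0332) or SE2 (0.0276). The difference between these changes was 0.92 ± 0.460 (adjusted p = 0.224), and it passed without a filter (0.0432) and without SE2 (0.0175). Of the neighbors in the order SF, TF, TE, SE, none passed the test in the fit over 4 groups, and TE and SE overlapped.

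Fgfr2 and Fgfr3 are the receptors best known from epithelia, skeleton and limb. Fgfr2 was at 42.9 and 31.8 CPM in TF, 0.806 and 2.13 in TE, 10.02 and 15.9 in SF and 4.05 and 4.11 in SE, with no overlap between groups. TF was thus the group highest in Fgfr2 and TE the lowest. The log2 fold change was -4.67 ± 0.541 for TE versus TF (adjusted p = 0.000247) and -1.67 ± 0.477 for SE versus SF (adjusted p = 0.0198), and the change in teratoma-derived cells exceeded that in satellite cells by -2.999 ± 0.682 on the log2 scale (adjusted p = 0.018). Fresh teratoma-derived cells also exceeded fresh satellite cells (log2 fold change 1.53 ± 0.467, adjusted p = 0.0405), but that call was lost under median-ratio size factors (0.0601) and without any of the 4 libraries (0.0566 to 0.192). Between TE and SE the log2 fold change was -1.47 (adjusted p = 0.122, but 0.0302 without a filter). The SE versus SF call was lost without SF2 (adjusted p = 0.0931), SE1 (0.0692) or SE2 (0.0635), and the difference between the changes without TF1 (0.0731) or TE1 (0.0659).

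Fgfr2 and Fgf10 followed the same order of group means, TF, SF, SE and TE, as the summed fibro-adipogenic markers given above. The summed epithelial and haematopoietic markers had that order of means too. So did the satellite cell gene Pax7, at means of 258 CPM in TF, 250 in SF, 96.5 in SE and 92.3 in TE. The summed myogenic markers did not. Fgfr3 also had it, but its TF and SF means, 9.83 and 9.43 CPM, were nearly equal and their libraries overlapped. The direction between them was reversed in 6 of 15 alternatives. The part of any such cells in these levels was not tested. Pdgfra, the defining fibro-adipogenic marker, was at 269 and 280 CPM in TF, 82.0 and 125 in SF, 2.64 and 1.43 in SE and 0.605 and 0.207 in TE. Ly6a, Col1a1 and Col3a1 had the same order of means. Col1a1 and Col3a1 made up most of the sum, at means of 13680 and 17320 CPM in TF. The other markers of the list differed. Dcn and Lum were lowest in SE, at means of 0.486 and 0 CPM, against 2.56 and 0.202 in TE. Dpt was highest in SF, at 246 CPM against 232 in TF. Fgfr3 was at 10.4 and 9.25 CPM in TF, 3.02 and 0.674 in TE, 5.88 and 12.98 in SF and 2.07 and 5.66 in SE. Its replicates differed widely in every group but TF, and in the fit over 4 groups only TE and SF differed past the threshold (log2 fold change -2.35, adjusted p = 0.0424). The log2 fold change was -2.41 ± 0.834 for TE versus TF (adjusted p = 0.06) and -1.29 ± 0.800 for SE versus SF (0.215). The former passed in 6 of 15 alternatives, namely without a filter (0.00765), with only the groups compared (0.0342), with DESeq2 (0.0164) and without TE1 (0.0459), SE1 (0.0451) or SE2 (0.0497).

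Fgfrl1 is the receptor-like protein without a kinase. It was at 24.5 and 20.7 CPM in TF, 39.9 and 35.4 in TE, 15.1 and 12.4 in SF and 32.7 and 36.6 in SE. Every expanded library lay above every fresh library, and TE and SE overlapped. Fgfrl1 rose from SF to SE (log2 fold change 1.33 ± 0.254, adjusted p = 0.00261). For TE versus TF the log2 fold change was 0.73 ± 0.250 (adjusted p = 0.0563), which passed with only the groups compared (0.0264) and without SF1 (0.0418) or SF2 (0.0405), and the difference between the changes was -0.59 ± 0.354 (0.308).

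Levels can be compared between receptors only per length, here as CPM per kilobase of the longest protein-coding transcript in GENCODE M21, so values depend on that choice of transcript. On this scale Fgfr1 and Fgfr4 made up nearly all of the RNA of the 4 kinase-bearing receptors. The sum of the 4 was 172 ± 23.3 CPM per kilobase (SD, n = 2) in TF, 57.8 ± 0.778 in TE, 334 ± 60.8 in SF and 69.3 ± 20.4 in SE. Fgfr4 took 32.3% and 40.1% of the sum in TF, 65.2% and 63.0% in TE, 26.5% and 25.6% in SF and 32.4% and 43.9% in SE. The TE libraries were thus the only ones in which Fgfr4 exceeded Fgfr1. The ratio of Fgfr4 to Fgfr1 per kilobase, which does not depend on the scaling of libraries, was 1.96 and 1.76 in TE, 0.541 and 0.732 in TF, 0.366 and 0.353 in SF and 0.498 and 0.823 in SE. TE lay above the other 6 libraries without overlap. With 2 libraries against 2, the exact permutation test (two-sided) cannot go below p = 0.333, so no p is given for these shares.

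**Figure D2:**
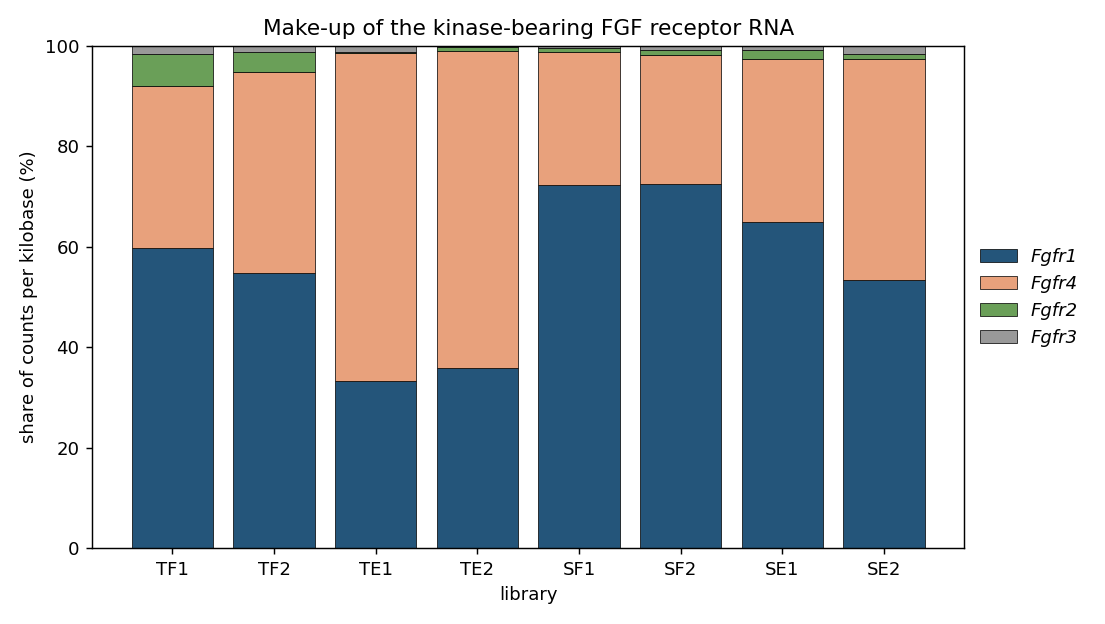
Share (%) of each kinase-bearing FGF receptor in their summed counts per kilobase of longest coding transcript, 1 stacked bar per library. Fgfr4 takes 65.2% and 63.0% in the TE libraries and at most 43.9% in the other 6.

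The ligands were expressed at lower levels than Fgfr1 and Fgfr4, with group means per kilobase between 0.0313 CPM (Fgf10 in TE) and 8.81 CPM (Fgf9 in SF). Fgf1, acidic FGF, binds all the kinase-bearing receptors and lacks a classical secretion signal. It was at 13.2 and 13.5 CPM in TF, 1.41 and 0.934 in TE, 15.5 and 12.3 in SF and 4.99 and 7.43 in SE. The fresh groups overlapped, SE lay below them and TE lay below SE. Fgf1 fell from TF to TE (log2 fold change -3.50 ± 0.507, adjusted p = 0.000893), and for SE versus SF the log2 fold change was -1.17 ± 0.457 (adjusted p = 0.0666). The latter passed under median-ratio size factors (-1.36, adjusted p = 0.0384), with Rn45s removed (0.0459) and with DESeq2 (0.0234). TE was below SE (-2.40 ± 0.489, adjusted p = 0.0178). The difference between the changes was -2.33 ± 0.658 (adjusted p = 0.0431), a call that was lost in 11 of 14 alternatives, among them median-ratio size factors (0.0523) and the removal of Rn45s (0.0523). The TE versus SE call was lost with only those groups in the fit (0.0525) and without TE1 (0.0853), TE2 (0.159) or SE2 (0.0511). The locus of Fgf1 lies within that of Arhgap26 on the opposite strand, and Arhgap26 was at 9.16 and 10.5 CPM in TF, 0.705 and 2.85 in TE, 21.3 and 20.8 in SF and 5.28 and 5.48 in SE. Strand use in the counting was not stated, and without it reads from stretches shared by exons of both genes cannot be told apart. The overlaps given here are of whole gene spans, and overlap of exons was not tested.

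Fgf2, basic FGF, is the ligand most used to expand myoblasts. It was at 2.27 and 4.31 CPM in TF, 0.655 and 0.467 in TE, 3.12 and 7.33 in SF and 0.660 and 0.286 in SE, so that all expanded libraries lay below all fresh libraries. The libraries held few counts of it in culture. Fgf2 fell from SF to SE (log2 fold change -3.44 ± 1.09, adjusted p = 0.0307), and for TE versus TF the log2 fold change was -2.54 ± 1.05 (0.106, but 0.0355 with DESeq2). The SE versus SF call was lost with a replicate block (0.0581) and without SF2 (0.163), SE1 (0.0653) or SE2 (0.127). Nudt6 overlaps Fgf2 by 5199 bases on the opposite strand and ranged from 1.19 to 8.94 CPM, with TE below TF and SE overlapping it.

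Fgf7 and Fgf10 belong to the same subfamily, are made mainly by mesenchymal cells and act on the epithelial form of Fgfr2. Fgf7 was at 15.4 and 12.7 CPM in TF, 4.74 and 2.28 in TE, 17.3 and 18.6 in SF and 7.30 and 11.0 in SE. The fresh groups lay above the expanded groups, and TE was lowest. Fgf7 fell from TF to TE (log2 fold change -1.996 ± 0.469, adjusted p = 0.0121), a call lost without TF1 (0.0551) or TE2 (0.1). For SE versus SF the log2 fold change was -0.97 ± 0.451 (0.11). Fam227b, which spans Fgf7 on the opposite strand, had at most 17 counts in any library.

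Fgf10 was at 7.40 and 13.8 CPM in TF, 0.0504 and 0.207 in TE, 3.99 and 4.57 in SF and 0.236 and 1.77 in SE. TE was lowest, at 1 and 4 counts, and no group overlapped another. SE1 held only 5.04 counts, however, and TE versus SE did not pass the test (adjusted p = 0.193). Fgf10 fell from TF to TE (log2 fold change -6.29 ± 1.24, adjusted p = 0.00509, lost without TE1 at 0.0512), and the size of that change rests on those few counts. For SE versus SF the log2 fold change was -2.10 ± 1.0 (adjusted p = 0.119, but 0.0279 without SE2), and the difference between the changes was -4.19 ± 1.49 (adjusted p = 0.0951). That difference passed without a filter (0.029), with DESeq2 (0.0421) and without SE1 (0.0322). As given for Fgfr2, its groups fell in the order of the summed fibro-adipogenic, epithelial and haematopoietic markers and of Pax7. The part of any such cells was not tested.

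Fgf9, a secreted ligand of Fgfr1, Fgfr2 and Fgfr3, set SF apart. It was at 10.6 and 11.9 CPM in TF, 9.27 and 9.59 in TE, 40.2 and 23.1 in SF and 6.83 and 8.74 in SE. Both SF libraries lay above the other 6, and the other groups lay close together. Fgf9 fell from SF to SE (log2 fold change -2.02 ± 0.380, adjusted p = 0.00237) and was lower in TF than in SF (-1.49 ± 0.375, adjusted p = 0.0185). For TE versus TF the log2 fold change was -0.25 ± 0.371 (adjusted p = 0.65), and the difference between the changes was 1.77 ± 0.525 (adjusted p = 0.0514). That difference passed under median-ratio size factors (1.92, adjusted p = 0.0398), without a filter (0.035), with Rn45s removed (0.0403), with DESeq2 (0.0158) and without SF2 (0.0271). The TF versus SF call was lost without TF1 (0.0949), TF2 (0.0758) or SF1 (0.118).

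Counted over the 10 genes, 5 fell and 0 rose from TF to TE, where 26.1% of all genes tested were called in either direction, 9.86% higher and 16.2% lower. At an unadjusted p below 0.05 the counts were 8 lower and 1 higher, but the share of all genes at that level was not counted. DESeq2 called 8 lower and 0 higher, beside 3762 lower and 1829 higher over all genes. From SF to SE, 5 fell and 1 rose, against 40.7% of all genes called, 20.9% higher and 19.8% lower. Between fresh cells, 1 gene was higher and 2 were lower in TF than in SF (24.2% of all genes called, 15.1% higher and 9.13% lower), and between expanded cells 2 were lower and 0 higher in TE than in SE (7.21% called, 3.15% higher and 4.07% lower). At an unadjusted p below 0.05 the latter counts were 5 lower and 0 higher, again without a share of all genes. DESeq2 called 2 lower, beside 1253 lower and 864 higher over all genes. The difference between the expansion changes was called for 2 genes, both negative, against 14.3% of all genes, 4.7% positive and 9.62% negative. Of the pairs of groups that differ in both source and culture, TF was higher than SE in 4 genes (Fgfr1, Fgfr2, Fgfr4 and Fgf10) and lower in 0, where 23.6% of all genes were called, 14.5% higher and 9.16% lower. TE and SF differed in all 10, with Fgfrl1 higher in TE and the other 9 lower, where 46.6% of all genes were called, 23% higher and 23.6% lower. The median log2 fold change of the 10 genes was -2.35 for TE versus TF, -1.67 for SE versus SF, -0.21 for TF versus SF and -1.03 for TE versus SE, beside -0.18, -0.23, 0.08 and -0.0034 for all genes. TE versus TF and SE versus SF share no library, whereas each shares its libraries with the comparisons across cell source.

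**Figure D3:**
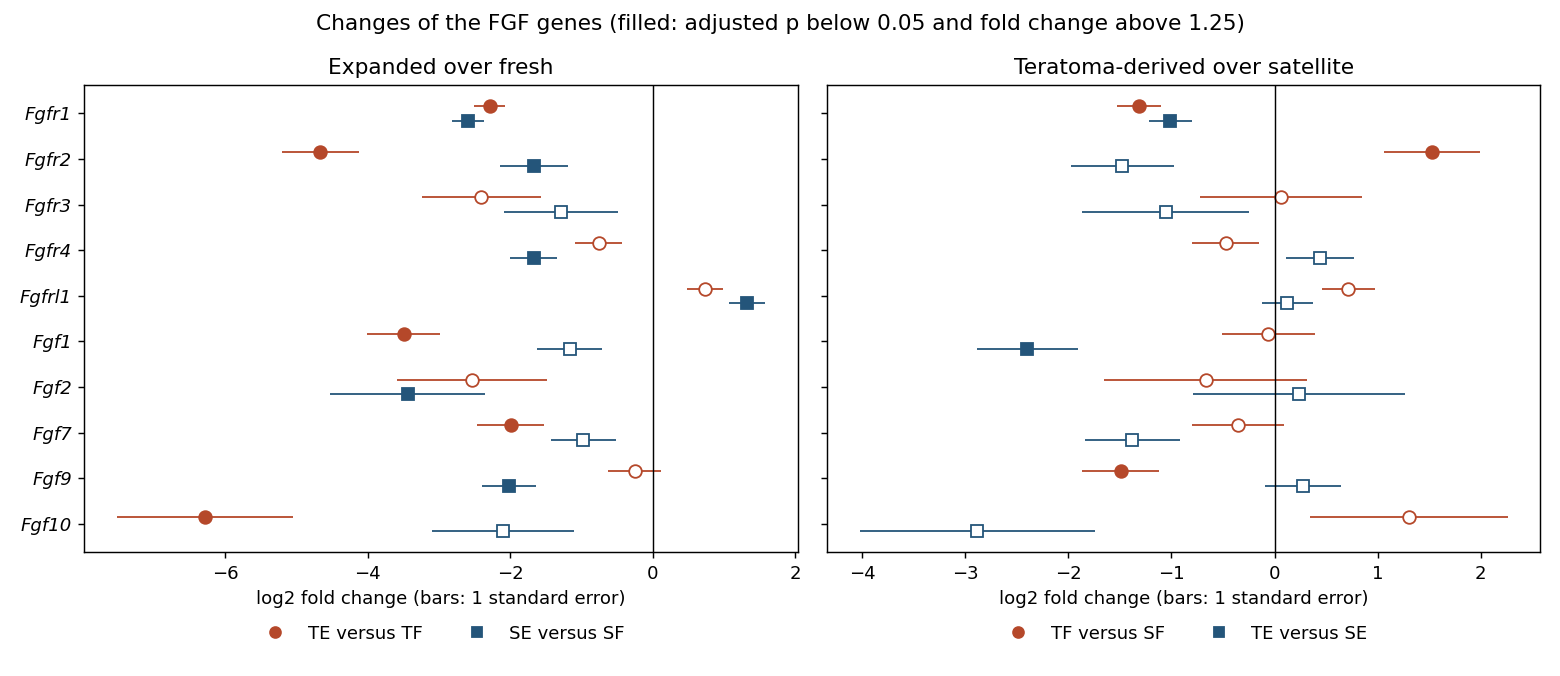
Log2 fold change of each FGF gene on expansion (left) and between cell sources (right), with bars of 1 standard error; filled points passed the test. On expansion Fgfr1 lies at -2.29 and -2.59, and Fgfrl1, at 0.73 and 1.33, is the gene with both points above 0.

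Across the 8 libraries, the genes whose log2 CPM ran most like that of each FGF gene were found among 12556 genes (12557 for Fgf2) by Pearson's r, as a description in which the points share groups and depth. For Fgfr1 they were Ifi203 (r = 0.997), Gsn (0.996) and Bmp3 (0.993), and for Fgfr4 Prox1 (0.995), Dnajc25 (0.988) and Slc15a2 (0.984). For Fgfr2 they were Gpm6b (0.988), Hunk (0.988) and Cxcr4 (0.984), and for Fgfr3 Fes (0.963), Vsig10l (0.961) and Pcdhb17 (0.947). Fgfrl1 ran most like Stradb (0.995), Actc1 (0.994) and Etfa (0.994), of which Actc1 encodes cardiac actin, a sarcomere protein of developing muscle. Among the ligands, Fgf1 ran most like Thrb (0.988), Slc27a1 (0.987) and Irak1 (0.985), Fgf2 like Rarb (0.994), Stat5b (0.988) and Kmt2e (0.988), and Fgf7 like Pcdhga10 (0.985), Agap2 (0.984) and Ada (0.983). Fgf9 ran most like Mocs2 (0.986), A930016O22Rik (0.979) and Sfxn4 (0.974), and Fgf10 like Aspn (0.993), Sesn1 (0.991) and Olfml2b (0.989), where Aspn and Olfml2b encode matrix proteins. Within the 10 genes the closest pairs were Fgf1 with Fgf7 (0.969), Fgfr2 with Fgf10 (0.940) and Fgfr3 with Fgf7 (0.931).

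The genes around these receptors were taken from 5 lists of 85 genes, of which 78 were tested. From TF to TE 11 rose and 18 fell (37.2% called, against 26.1% of all genes), and from SF to SE 20 rose and 19 fell (50%, against 40.7%). Between fresh cells 22 were higher and 7 lower in TF (37.2%, against 24.2%), and between expanded cells 7 were higher and 7 lower in TE (17.9%, against 7.21%). Under median-ratio size factors the split between fresh cells was 18 higher and 8 lower and that from SF to SE 18 higher and 22 lower.

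Of the 17 other FGF ligands 11 were tested. From TF to TE 2 rose and 2 fell, with a median log2 fold change of -2.06, or -1.95 with genes at the floor of 3 counts set to their bound. From SF to SE 2 rose and 4 fell (median -2.05). The calls were thus 36.4% and 54.5% of the list, against 26.1% and 40.7% of all genes. The 4 calls for TE versus TF became 1 without TF1 and 2 without TE2, and the 6 for SE versus SF became 3 without SF2 and 1 without SE1. Fgf21, an endocrine FGF known from metabolic and cellular stress, was at 0.084 and 1.28 CPM in TF, 109 and 104 in TE, 0 in both SF libraries and 6.31 and 27.0 in SE. It rose in culture in both kinds of cell, at log2 fold change 7.26 ± 0.949 for TE versus TF (adjusted p = 0.00076) and at least 79.4-fold higher in SE than the floor of 3 counts per library in SF (adjusted p = 0.000887). Fgf11, Fgf12 and Fgf13 encode FGF-like proteins that stay in the cell and bind sodium channels. Fgf13 was at a mean of 2.89 CPM in TF, 0.686 in TE, 13.7 in SF and 12.98 in SE and was lower in TE than in SE (log2 fold change -4.22, adjusted p = 0.00355). Fgf12 fell from SF to SE (-3.84, adjusted p = 0.0103, but 0.0521 without SE1). Fgf11 was lower in TF than in SF (-1.66, adjusted p = 0.0286), a call lost with only those groups in the fit (0.0584) and without TF1 (0.12), SF1 (0.0961), SF2 (0.0595), TE1 (0.0509) or TE2 (0.0507).

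Of the 19 coreceptors and binding proteins tested, 2 rose and 7 fell from TF to TE (median -0.84), 6 rose and 4 fell from SF to SE (median 0.43), and 10 were higher and 1 lower in TF than in SF (median 1.42). These calls were 47.4%, 52.6% and 57.9% of the list, against 26.1%, 40.7% and 24.2% of all genes. Gpc3 encodes a heparan sulfate proteoglycan anchored in the membrane and is known as a fetal gene. It was at 432 and 502 CPM in TF, 132 and 136 in TE, 74.0 and 83.9 in SF and 0.895 and 1.89 in SE. No group overlapped another, and SE was nearly without it. Gpc3 was higher in TE than in SE (log2 fold change 6.61 ± 0.327, adjusted p = 1.55e-05), and its fall on expansion was smaller in teratoma-derived cells (difference 4.05 ± 0.386, adjusted p = 0.00032). Flrt3, a membrane protein that binds FGF receptors, fell on expansion (log2 fold change -5.68 and -2.74 in teratoma-derived and satellite cells, adjusted p = 0.000553 and 0.00987, the latter 0.0533 with only SE and SF in the fit), whereas Cdh2, N-cadherin, which can associate with Fgfr1, rose (1.23 and 4.21, adjusted p = 0.00418 and 5.44e-06). Sdc3, a syndecan of satellite cells, fell from TF to TE (-1.06, adjusted p = 0.0137) and rose from SF to SE (2.14, adjusted p = 0.000202), with a difference of -3.20 (adjusted p = 0.000744). The fall of Sdc3 from TF to TE lost its call without TF1 (0.078), TE1 (0.0767) or TE2 (0.113).

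All 14 heparan sulfate enzymes were tested, and 1 rose and 5 fell from TF to TE (median -0.57), while 4 rose and 4 fell from SF to SE (median 0.16). These calls were 42.9% and 57.1% of the list, against 26.1% and 40.7% of all genes. The difference between the changes was called for 7 of them, 1 positive and 6 negative (50%, against 14.3% of all genes), and for 4 without TE1 or TE2. Sulf1 and Sulf2 encode the extracellular sulfatases that take 6-O-sulfate off heparan sulfate. Sulf1 was at 361 and 425 CPM in TF, 24.9 and 25.8 in TE, 296 and 389 in SF and 64.1 and 75.7 in SE. It fell in both kinds of cell, by 3.95 and 2.29 on the log2 scale (adjusted p = 4.96e-06 and 3.67e-05), and further in teratoma-derived cells (difference -1.66, adjusted p = 0.00507). Sulf2 was at 148 and 130 CPM in TF, 39.1 and 38.6 in TE, 31.5 and 20.2 in SF and 163 and 96.3 in SE. It fell from TF to TE (-1.84, adjusted p = 0.00148) and rose from SF to SE (2.33, adjusted p = 0.000249), a difference of -4.17 ± 0.415 (adjusted p = 0.000399). Hs2st1, a 2-O-sulfotransferase, rose from SF to SE (1.40, adjusted p = 0.00145) and had a log2 fold change of -0.38 for TE versus TF (0.259). Hs6st3, a 6-O-sulfotransferase, was at a mean of 20.2 CPM in SF and at 0 in all 4 expanded libraries, at least 129-fold lower in SE against the floor of 3 counts per library.

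Of the 20 signal transducers, 5 rose and 2 fell from TF to TE (median 0.40) and 3 rose and 3 fell from SF to SE (median 0.30). These calls were 35% and 30% of the list, against 26.1% and 40.7% of all genes. The 7 calls for TE versus TF became 3 without TF2, 4 without TE1 or TE2 and 11 with only the groups compared. Gab1, a docking protein of receptor tyrosine kinases, fell in both kinds of cell, at log2 fold changes of -2.11 (adjusted p = 0.000389) and -3.04 (adjusted p = 3.6e-05). The RAS gene Hras rose in both (1.09 and 1.53, adjusted p = 0.00307 and 0.000274), and Nras rose from TF to TE (1.49, adjusted p = 0.00191). Braf, the kinase below RAS, fell from SF to SE (-2.03, adjusted p = 5.36e-05), with a log2 fold change of -0.47 for TE versus TF (0.0992) and a difference of 1.56 (adjusted p = 0.00539).

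Of the 14 ERK targets and feedback inhibitors, 1 rose and 2 fell from TF to TE (median -0.60) and 5 rose and 4 fell from SF to SE (median 0.16). These calls were 21.4% and 64.3% of the list, against 26.1% and 40.7% of all genes. The 3 calls for TE versus TF became 0 without TE1 or TE2, 1 without TF2, 7 without SE1 or SE2, 6 without a filter or with DESeq2 and 8 with only the groups compared. Spry1, a feedback inhibitor of receptor tyrosine kinase signaling, was at 152 and 175 CPM in TF, 74.5 and 87.5 in TE, 179 and 197 in SF and 10.4 and 29.0 in SE. It fell from SF to SE (log2 fold change -3.26, adjusted p = 0.000213) and had a log2 fold change of -1.01 for TE versus TF (0.0736). It was higher in TE than in SE (2.05, adjusted p = 0.0125, lost without TE1 at 0.0578 or TE2 at 0.0879), and the difference between the changes was 2.25 (adjusted p = 0.0212), lost without TF1 (0.0804), TF2 (0.0683), TE1 (0.062) or TE2 (0.085). Dusp4, a nuclear ERK phosphatase, rose in both kinds of cell (log2 fold change 2.10 and 3.08, adjusted p = 0.0272 and 0.00318), the former lost without TF2 (0.12), TE1 (0.101) or TE2 (0.0905). Dusp5, a related phosphatase, fell from TF to TE (-2.49, adjusted p = 0.0064, lost without TE1 at 0.0616 or TE2 at 0.0521). Etv4, a transcription factor induced by FGF, rose from SF to SE (2.42, adjusted p = 0.00759, lost without SE1 at 0.075). For Dusp4, Dusp5 and Etv4 the difference between the changes did not pass the test (adjusted p = 0.478, 0.298 and 0.086).

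**Figure D4:**
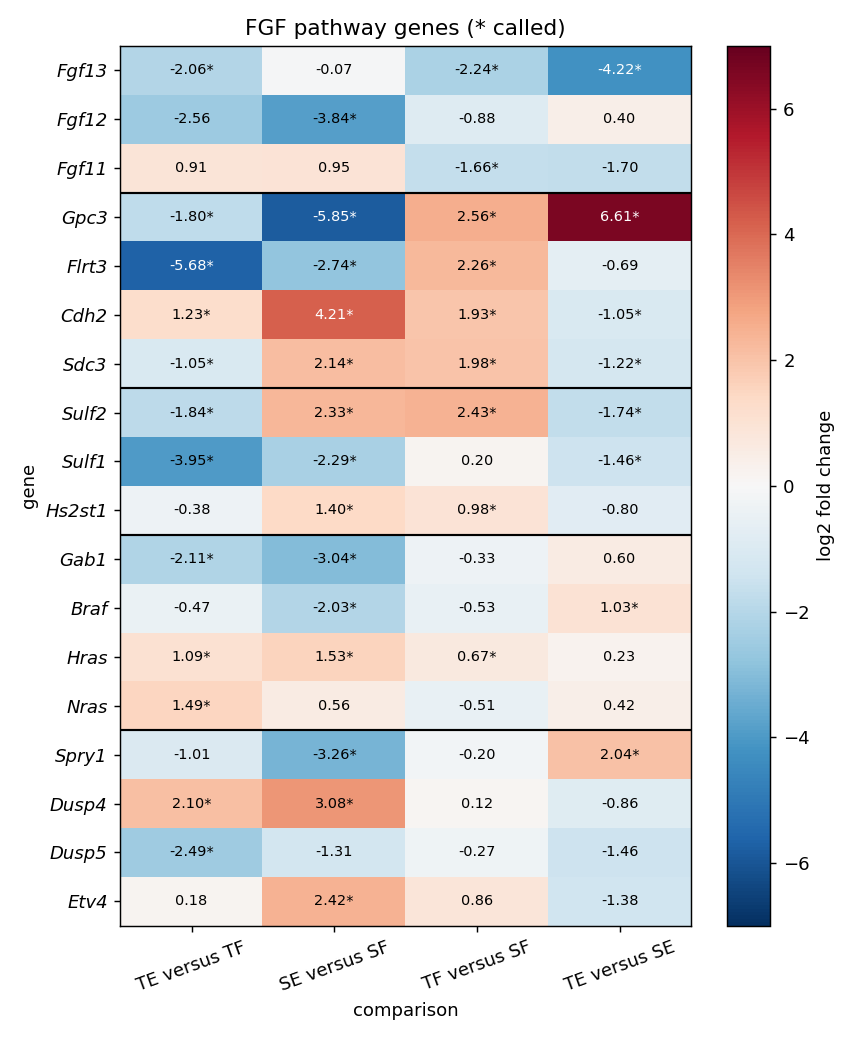
Log2 fold changes of the named FGF pathway genes except Hs6st3 and Fgf21 in 4 comparisons, grouped by list (lines) and colored from blue (lower) to red (higher). Asterisks mark calls. Sulf2 and Sdc3 fall from TF to TE and rise from SF to SE, and Gpc3 reaches 6.61 for TE versus SE.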

How the data were processed

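RNA-seq libraries of TF, TE, SF and SE cells (2 each, grouped by their titles) were made with a stranded total RNA kit. The authors deposited 1 table of estimated counts per gene symbol, without normalization, and the submitters' processing notes name CASAVA, kallisto 0.44.0 and GRCm38 (mm10). Strand use in counting was not given in the sources used here. Values that were exactly whole as deposited, with no tolerance, made up 74.4% to 84.4% of each column, and every value was rounded. Genes were filtered by filterByExpr, normalized by TMM and tested with edgeR 4.0.16 (R 4.3.3) by the quasi-likelihood test in 1 fit over 4 groups, with Benjamini-Hochberg adjustment. DESeq2 1.42.0, median-ratio size factors, no filter, only the groups compared, a replicate block, glmTreat, removal of Rn45s and each library left out were the alternatives. The steps were tested on simulated counts. Gene coordinates came from GENCODE M21 on GRCm38. The members and lists were chosen with earlier results of these data known. All 10 FGF genes were named, with up to 4 genes per pathway list that were called in at least 1 comparison, had a mean of at least 50 counts and had the largest absolute log2 fold change. The labels state biological replicates but not whether they came from separate animals or cultures, so p-values measure the spread between these libraries, which may be technical.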

Additional observations from a re-analysis of the deposited data

Results flagged for a closer look

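For Fgfr2 and Fgf1 the change on expansion differed between teratoma-derived and satellite cells by the test of that difference itself, the interaction term of edgeR's quasi-likelihood fit. The difference between TE versus TF and SE versus SF was -2.999 on the log2 scale for Fgfr2 (adjusted p = 0.018), as both TE libraries lay below both SE libraries while both TF libraries lay above both SF libraries. For Fgf1 it was -2.33 (adjusted p = 0.0431), as TF and SF overlapped while TE lay below SE. Its adjusted p rose to at most 0.155 over the alternatives.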

How the results depend on the processing

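Of the 18 calls on FGF genes in 5 comparisons, 8 held under all 15 alternatives, namely Fgfr1, Fgfr2 and Fgf1 for TE versus TF, Fgfr1, Fgfr4, Fgfrl1 and Fgf9 for SE versus SF, and Fgfr1 for TF versus SF, and 0 reversed. The count of FGF genes called for TE versus TF was 5, 8 with only the groups compared or with DESeq2, and 4 to 7 with a library left out. It was 6 for SE versus SF (4 to 6 with a library left out), 3 for TF versus SF (1 to 3), and 2 for TE versus SE (1 with only the groups compared, 0 to 2 with a library left out). For the difference between the expansion changes it was 2, and 5 without a filter, 4 with DESeq2, 1 with glmTreat, 1 with a replicate block and 0 to 3 with a library left out. The pathway lists gave 29 calls for TE versus TF (17 to 35 with a library left out), 39 for SE versus SF (32 to 38), 29 for TF versus SF (15 to 34), 14 for TE versus SE (4 to 20) and 18 for the difference (11 to 22). The 18 pathway calls for the difference in the main fit were 23.1% of the pathway genes tested, against 14.3% of all genes. DESeq2 called 1493 genes positive and 1908 negative for the difference over all genes. Except with DESeq2, median-ratio size factors and removal of Rn45s, calls over all genes were not counted for the alternatives. The other counts therefore cannot be set against a share of all genes. Of 56 calls on the named pathway genes, 35 held in every alternative and 0 reversed. FGF genes called fell to 0 for TE versus SE without TE1 or TE2 and for the difference without TF1 or TE1. The pathway calls fell most without a TE library in TE versus TF (19 and 17) and TE versus SE (4 and 4), and without TF2 in TF versus SF, where the lone library is assumed to vary like the other groups.

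The labels do not state whether same-numbered replicates of different groups belong together. The correlations of same-numbered deviations from the group means lay between -0.0231 and 0.066. Such correlations over all genes cannot tell whether these replicates shared an animal or a culture. The replicate block gave 5, 5, 3, 2 and 1 calls of FGF genes in the order of comparisons above.

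Directions reversed only in uncalled values. Fgfr3 for TF versus SF (0.06) was -0.0914 under median-ratio size factors, -0.0907 with DESeq2, -0.0814 without Rn45s and -0.00631 with only the groups compared, and -0.42 to 0.74 with a library left out (negative without TF1 or SF1). Fgf1 for TF versus SF (-0.06) was -0.22 to 0.0949 with a library left out (positive without SF1). Fgf2 for TF versus SF (-0.67) was -1.20 to 0.0742 (positive without SF2), and for TE versus SE (0.24) it was -0.23 to 0.96 (negative without TE1 or SE2). Median-ratio size factors shifted the median of all genes by -0.19 for SE versus SF, -0.16 for TF versus SF and 0.14 for the difference, and over all genes moved the split from 3677 higher and 3475 lower to 3064 and 3958 for SE versus SF and from 2655 and 1606 to 2110 and 1943 for TF versus SF. At 1 and 4 counts in TE, depth limits the size of the Fgf10 change.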
